A study of Arabidopsis thaliana with 42 samples.

Results

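PRK, RCA, PSAN, PSAE-1, PORB and CHLM are genes of the Arabidopsis thaliana nucleus that serve photosynthesis or chlorophyll synthesis, and their transcript levels were followed here. They were chosen by name, and each was read by the 1 probe set that a platform table pairs with that gene alone, so the members were 6 of 22746 probe sets tested, 13513 of which are paired with 1 gene. Their loci are AT1G32060 (PRK), AT2G39730 (RCA), AT5G64040 (PSAN), AT4G28750 (PSAE-1), AT4G27440 (PORB) and AT4G25080 (CHLM). The study hybridised RNA from roots and shoots to 42 Affymetrix ATH1 arrays, 1 per sample. Its design varied genotype, tissue and zinc supply. The genotypes were bzip19 bzip23, a double T-DNA insertion mutant, and its background, wild type Columbia (Col-0). All plants grew in nutrient solution, first for 3 weeks at 2 µM zinc sulfate and then for 1 week at one of 3 supplies, and were 4 weeks old. Low zinc was 0.05 µM, normal zinc 2 µM and excess zinc 25 µM. Each of the 12 groups is 1 tissue of 1 genotype at 1 supply, with 4 arrays per root group and 3 per shoot group. Each sample pooled 6 plants from 2 containers, and the double mutant is 1 line.

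The Calvin cycle fixes carbon dioxide in the chloroplast stroma. PRK (phosphoribulokinase) regenerates ribulose bisphosphate, the acceptor, and RCA (Rubisco activase) frees the active site of Rubisco from bound sugar phosphates. PSAN and PSAE-1 are subunits of photosystem I: PSAN lies on the lumenal side, where plastocyanin delivers electrons, and PSAE-1 on the stromal side, where ferredoxin takes them up. CHLM methylates magnesium protoporphyrin IX, an early step of the chlorophyll branch of tetrapyrrole synthesis. PORB reduces protochlorophyllide to chlorophyllide in a late step of that branch, a reaction that needs light. Such genes are known for high transcript levels in green tissue and low ones in roots. bZIP19 and bZIP23 are transcription factors of the zinc deficiency response.

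Root markers and bZIP19, a disrupted gene, followed the labels. PYK10, a beta-glucosidase of roots, and EXPA7 and EXPA18, expansins of root hairs, were all higher in roots than in shoots in each of the 6 pairs of groups; the other 12 loci of the root marker list were not among the probe sets with 1 gene. The mean of the 3 markers over an array was 9.09 to 10.12 on the log2 scale in roots and 5.74 to 6.45 in shoots. bZIP19 averaged 4.46 to 4.92 in the mutant groups and 8.70 to 9.88 in the wild-type groups (log2). On the array of wild-type shoots at low zinc, replicate 1, the 3' and 5' control probe sets of actin, a measure of RNA integrity, were 6.12 apart on the log2 scale, against 1.29 to 1.95 in the other shoot arrays. That array and the array of wild-type roots at excess zinc, replicate 2, had the lowest mean correlation with the rest of their group (0.980 each). Array names carry a number that was read as a date: in roots, low zinc lay on another date than normal and excess zinc, and in shoots, excess zinc lay on another date than low and normal zinc. Date and condition cannot be told apart for low against normal zinc in roots, for excess against normal zinc in shoots and for roots against shoots. Excess against normal zinc in roots, low against normal zinc in shoots and all comparisons of genotypes at 1 supply lie within 1 date. Whether the replicates grew in separate cultures is not stated in the labels, and p-values therefore reflect the spread among these samples alone.

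All 6 members were lower in roots than in shoots, in both genotypes and at each supply, with no overlap between the groups. PRK differed by 230-fold to 254-fold over the 6 pairs of groups, PSAE-1 by 219-fold to 243-fold, RCA by 111-fold to 147-fold and PSAN by 49.4-fold to 206-fold. Of the chlorophyll synthesis genes, PORB differed by 10.6-fold to 41.2-fold and CHLM by 4.79-fold to 10.2-fold. The tissue difference is the log2 level in roots minus that in shoots, a value of limma fitted to all 42 arrays. It ran from -7.99 to -7.85 for PRK, from -7.20 to -6.79 for RCA, from -7.69 to -5.63 for PSAN, from -7.92 to -7.77 for PSAE-1, from -5.36 to -3.41 for PORB and from -3.35 to -2.26 for CHLM. The standard error was at most 0.28, and the highest adjusted p of the 36 differences was 3.33e-15, that of CHLM in the mutant at low zinc. Calls rest on an adjusted p under 0.05, after Benjamini-Hochberg adjustment across all 22746 probe sets. The call of all 6 members stands beside a large background: of all probe sets, 62% were called in the mutant at low zinc, 64.1% at normal zinc and 59.3% at excess zinc, and in wild type 62% at low, 60.8% at normal and 58.9% at excess zinc. In bulk tissue, fewer cells of a type and less RNA per cell cannot be told apart.

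**Figure D1:**
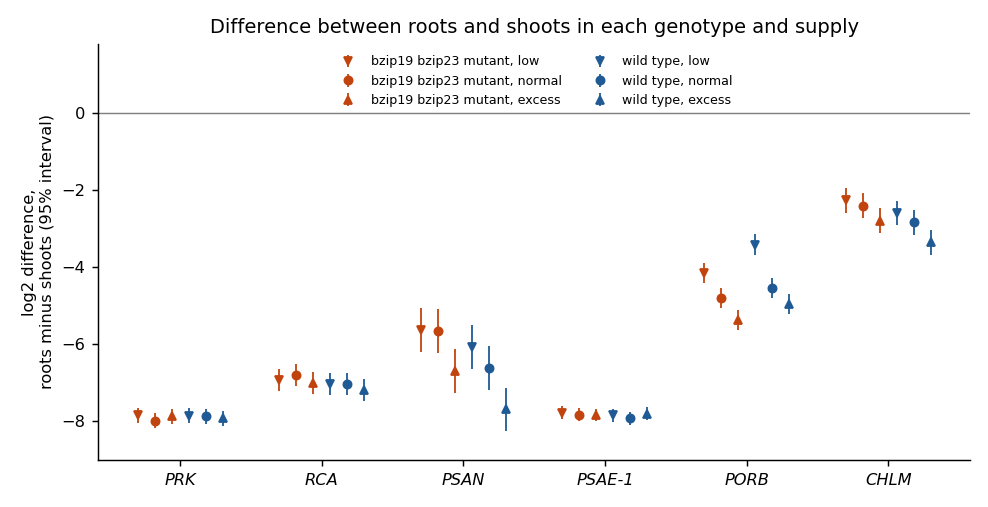
Difference between roots and shoots for each gene, as log2 level in roots minus log2 level in shoots (y axis), with 95% intervals from limma. Marker shapes give the zinc supply and colours the genotype. PRK, PSAE-1 and RCA keep nearly 1 value over the 6 pairs of groups, while PSAN spans -7.69 to -5.63, PORB -5.36 to -3.41 and CHLM -3.35 to -2.26.

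The residual signal in roots was not alike for the 6 genes. As a description of brightness, the root group means of PRK lay above 18.1 to 21.7% of all probe sets on the array, those of PORB above 26.7 to 31.3% and those of PSAE-1 above 29.1 to 32.7%. The table gives no detection calls, so for these 3 genes the root value may be background, and their tissue difference reads as a lower bound. PSAN lay above 28.2 to 58.8%, and its lowest group, wild-type roots at excess zinc, was as dim as those genes, so that its 206-fold difference there is a lower bound too. Where such bounds enter, the folds of the genes give no ranking. RCA lay above 47.8 to 53.8%, and CHLM stood among the bright probe sets of roots, above 72.6 to 85.6%. In shoots, the means of RCA, PSAE-1, PSAN and PRK lay above at least 99.5% of all probe sets in each group, those of CHLM above at least 98.0%, and those of PORB above 82.0 to 95.1%.

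In shoots, neither Calvin cycle gene nor either photosystem I gene was called between zinc supplies. These probe sets are among the brightest of the array, and whether signal near saturation hides differences between groups was not tested. PRK averaged 12.75 ± 0.041, 12.82 ± 0.14 and 12.67 ± 0.14 in mutant shoots at low, normal and excess zinc, against 12.86 ± 0.14, 12.90 ± 0.098 and 12.92 ± 0.063 in wild-type shoots (log2, SD, n = 3 each, here and for the other shoot means). RCA averaged 14.06 ± 0.17, 14.02 ± 0.073 and 13.88 ± 0.032 in mutant shoots, against 13.98 ± 0.055, 13.97 ± 0.049 and 13.98 ± 0.058 in wild-type shoots. All 18 arrays fitted within 0.45 log2 units for PRK and 0.34 for RCA. In the order of their means, neighbouring groups lay within their spread, except that RCA in the mutant at excess zinc met the next group, wild type at normal zinc, at 13.92 and did not cross it. Some groups further apart in that order were separated. In mutant shoots RCA at excess zinc (13.86 to 13.92) lay below all arrays at normal zinc (13.98 to 14.11). At excess zinc PRK in mutant shoots (12.55 to 12.82) lay below all wild-type arrays (12.88 to 12.99). PSAN averaged 12.99 ± 0.14, 13.21 ± 0.064 and 13.09 ± 0.094 in mutant shoots, against 13.27 ± 0.055, 13.31 ± 0.10 and 13.10 ± 0.052 in wild-type shoots. PSAE-1 averaged 13.20 ± 0.079, 13.37 ± 0.12 and 13.50 ± 0.042 in mutant shoots, against 13.43 ± 0.029, 13.52 ± 0.042 and 13.44 ± 0.063 in wild-type shoots. The mutant at low zinc was the lowest group for both photosystem I genes, and wild type at normal zinc the highest, and in the order of the means the SDs of neighbouring groups overlapped. PSAE-1 in wild type did not overlap between low (13.40 to 13.46) and normal zinc (13.49 to 13.57). PSAN did not overlap between low (12.83 to 13.09) and normal zinc (13.13 to 13.25) in the mutant. In wild type PSAN did not overlap between excess (13.04 to 13.13) and normal zinc (13.20 to 13.39). For these separations, and those of RCA and PRK, the share over all probe sets was not counted. CHLM, which makes a precursor of chlorophyll, averaged 11.61 ± 0.041, 11.79 ± 0.19 and 11.65 ± 0.083 in mutant shoots, against 11.65 ± 0.21, 11.83 ± 0.15 and 11.74 ± 0.051 in wild-type shoots. Its 18 shoot arrays lay between 11.41 and 11.98, and the groups next to each other in level overlapped.

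**Figure D2:**
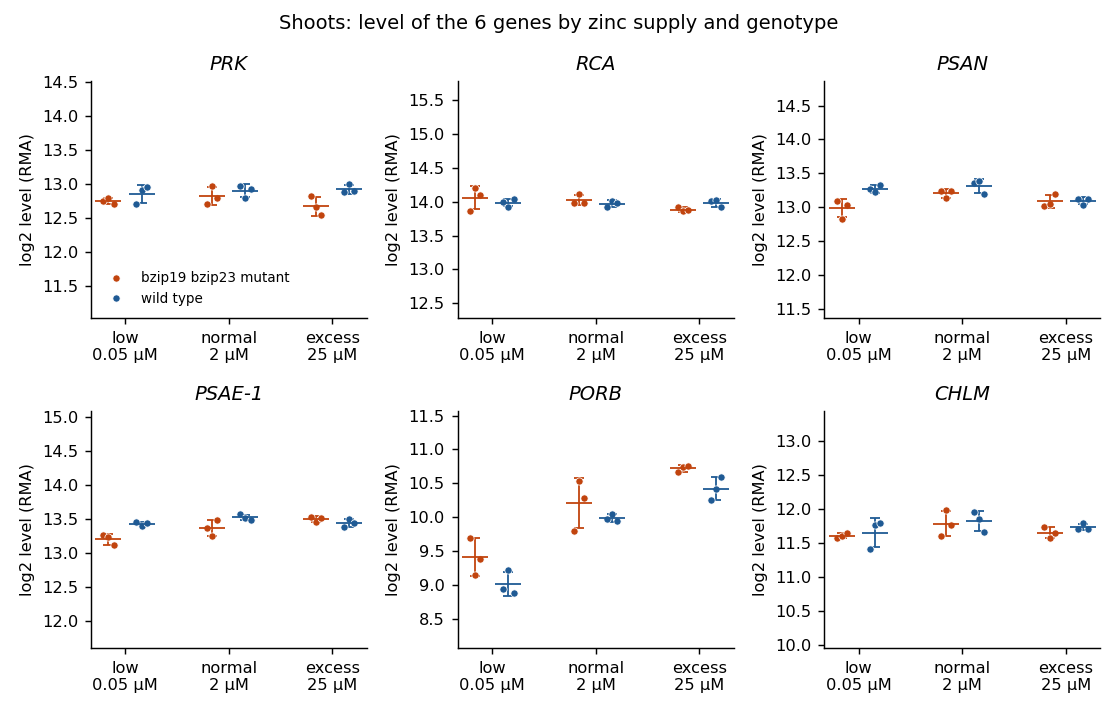
Log2 level (y axis, RMA values) of each gene in shoots at low, normal and excess zinc (x axis), with a point per array and bars for the mean and SD, n = 3. Each panel spans the same number of log2 units. PORB is lowest at low zinc (8.88 to 9.70) and highest at excess zinc (10.25 to 10.75), while no other gene spans more than 0.58 log2 units over the 18 arrays. Arrays at excess zinc lie on another date than those at low and normal zinc.

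PORB was the only member called between zinc supplies in shoots. Low and normal zinc lay on 1 array date and excess zinc on another, so only the step from low to normal zinc is free of date. In mutant shoots it read 9.70, 9.14 and 9.39 at low zinc, 9.80, 10.54 and 10.29 at normal zinc, and 10.67, 10.74 and 10.75 at excess zinc (log2). In wild-type shoots it read 8.95, 9.22 and 8.88 at low zinc, 9.97, 10.05 and 9.94 at normal zinc, and 10.25, 10.42 and 10.59 at excess zinc. Within each genotype the 3 supplies did not overlap, and all 6 arrays at low zinc lay below all 6 at normal zinc. Such separation was not particular to PORB, as RCA, PSAN and PSAE-1 each showed it in shoots between some supplies. Its share over all probe sets was not counted. The group means of PORB were 9.41 ± 0.28, 10.21 ± 0.37 and 10.72 ± 0.047 in the mutant at low, normal and excess zinc, and 9.01 ± 0.18, 9.99 ± 0.059 and 10.42 ± 0.17 in wild type. In order of level, each supply's mutant and wild-type groups were neighbours, and they did not differ beyond their spread at low and at normal zinc, while at excess zinc the mutant's arrays all lay above those of wild type. The mutant at normal zinc and wild type at excess zinc, neighbours of different supplies, overlapped, and low and normal zinc were set apart. In wild-type shoots PORB fell 1.96-fold at low zinc, a log2 difference of -0.97 ± 0.16 (SE), with an adjusted p of 0.00865 in limma. It was the only member of 6 called there, where 0.703% of all probe sets were called. In mutant shoots the difference at low zinc was -0.80 ± 0.16, with an adjusted p of 0.0670 in limma, and no member was called, against 0.0659% of all probe sets. Here 3 members had an unadjusted p under 0.05, beside 7.46% of all probe sets: PORB, PSAN at -0.22 and PSAE-1 at -0.17. The difference between the genotypes' responses of PORB was 0.18, with a 95% interval from -0.31 to 0.66, so the missing call in the mutant does not show that its response was smaller.

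Other nuclear genes of these pathways, and chloroplast-encoded genes, were read beside PORB in shoots at low zinc. Of the nuclear genes, HEMA2 was higher in roots than in shoots. The mean over 13 other nuclear genes of photosynthesis and tetrapyrrole synthesis was 10.98 to 11.05 on the arrays of mutant shoots at low zinc, against 10.99 to 11.25 at normal zinc. In wild-type shoots it was 10.93 to 11.10 at low zinc, against 11.19 to 11.25 at normal zinc, with no overlap. The mean over 69 probe sets of chloroplast-encoded genes overlapped between supplies, at 9.31 to 9.64 in mutant shoots at low zinc, against 9.36 to 10.32 at normal zinc, and 8.70 to 9.71 in wild-type shoots at low zinc, against 9.09 to 9.91 at normal zinc. The part of these genes in the fall of PORB was not tested.

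At excess zinc PORB was higher than at normal zinc by 0.51 ± 0.16 in mutant shoots (adjusted p = 0.0968, limma) and by 0.43 ± 0.16 in wild-type shoots (adjusted p = 0.338). Shoot arrays at excess and normal zinc lie on different dates, so date and zinc cannot be told apart in this rise. No member was called in mutant shoots, against 3.2% of all probe sets, or in wild-type shoots, against 0.62%. At an unadjusted p under 0.05 the counts were 1 (PORB) in the mutant, beside 20% of all probe sets, and 2 (PORB, and PSAN at -0.22) in wild type, beside 9.92%. In the mean of both genotypes, a comparison added after these values were seen, PORB stood at 9.21 at low zinc against 10.10 at normal zinc, a fall of 1.85-fold (log2 difference -0.89 ± 0.12, adjusted p = 5.77e-04, limma). It stood at 10.57 at excess zinc against 10.10 at normal zinc, 1.39-fold higher (0.47 ± 0.12, adjusted p = 0.0267). PORB was the 1 member called in each of these means, beside 1.67% of all probe sets at low zinc and 5.15% at excess zinc. Both comparisons use the same 6 arrays at normal zinc. The fall at low zinc in wild type lost its call without replicate 2 of wild type at normal zinc (-0.94, adjusted p = 0.0583). Without the array with the high actin measure it was -0.94 (adjusted p = 0.0257) and the averaged fall -0.87 (adjusted p = 0.00101), and the averaged fall at low zinc was called in all 21 alternative fits. The rise at excess zinc lost its call without any one of 7 of the 12 arrays: wild type at normal zinc 1 and 3, the mutant at normal zinc 1, wild type at excess zinc 2 and 3, and the mutant at excess zinc 2 and 3 (differences of 0.37 to 0.47, adjusted p up to 0.0701).

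**Figure D3:**
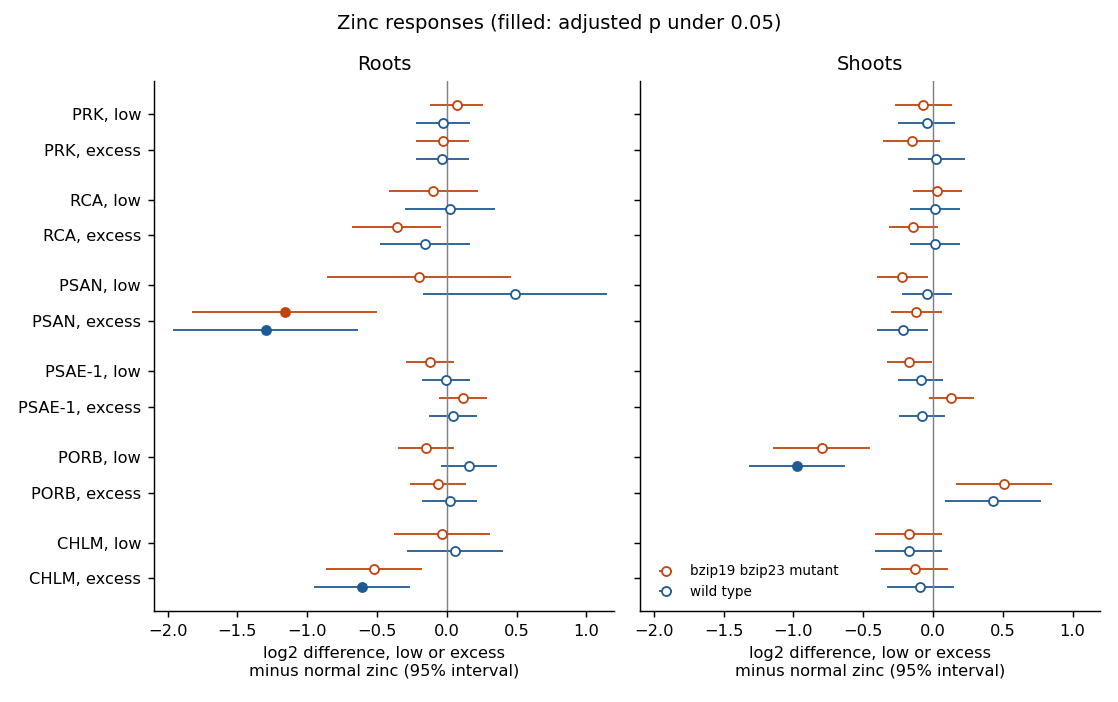
Log2 difference of low or excess zinc from normal zinc (x axis) with 95% intervals from limma, for each gene (y axis) in roots (left) and shoots (right), mutant above wild type. Filled points passed an adjusted p of 0.05: PSAN in roots of both genotypes and CHLM in wild-type roots at excess zinc, and PORB in wild-type shoots at low zinc.

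In roots the pattern was another: PORB, PRK and PSAE-1 kept their low signal at every supply, and PSAN and CHLM were lower at excess zinc. PSAN read 7.71, 7.26, 7.37 and 7.12 in mutant roots at low zinc, 8.12, 7.03, 7.65 and 7.43 at normal zinc, and 6.24, 6.93, 6.83 and 5.59 at excess zinc (log2). In wild-type roots it read 7.11, 7.23, 6.71 and 7.72 at low zinc, 7.65, 5.84, 6.56 and 6.77 at normal zinc, and 5.11, 5.17, 5.78 and 5.58 at excess zinc. All 4 arrays at excess zinc lay below all 4 at normal zinc in each genotype, and replicate 1 at normal zinc was the highest array of its group in both. PSAN fell 2.24-fold in mutant roots at excess zinc (log2 difference -1.16 ± 0.32, adjusted p = 0.0344, limma) and 2.46-fold in wild-type roots (-1.30 ± 0.32, adjusted p = 0.0112). The wild-type arrays at excess zinc may be at background, so their fold reads as a lower bound. Its root means were 7.36 ± 0.25, 7.56 ± 0.45 and 6.40 ± 0.62 in the mutant at low, normal and excess zinc, and 7.19 ± 0.42, 6.71 ± 0.74 and 5.41 ± 0.33 in wild type (SD, n = 4 each, here and for the other root means). Low and normal zinc did not differ beyond their spread in either genotype. In order of level, wild type at excess zinc stood lowest, and its SD bar ended just short of that of the mutant at excess zinc. The arrays of these groups overlapped, with 5.59 the lowest in the mutant and 5.78 the highest in wild type. All further neighbours lay within their spread.

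CHLM had a like pattern in roots, at a smaller scale. In mutant roots it read 9.43, 9.28, 9.25 and 9.45 at low zinc, 9.56, 9.23, 9.56 and 9.21 at normal zinc, and 8.91, 9.21, 9.01 and 8.34 at excess zinc (log2). In wild-type roots it read 9.01, 9.02, 8.99 and 9.22 at low zinc, 9.53, 8.69, 8.97 and 8.81 at normal zinc, and 8.29, 8.69, 8.19 and 8.40 at excess zinc. Wild-type arrays at excess zinc all lay below those at normal zinc, the closest pair being equal to the second decimal, while the mutant's supplies overlapped. CHLM fell 1.52-fold in wild-type roots at excess zinc (-0.61 ± 0.17, adjusted p = 0.0220, limma). In mutant roots the difference was -0.52 ± 0.17, with an adjusted p of 0.0748. Its means were 9.35 ± 0.10, 9.39 ± 0.20 and 8.87 ± 0.37 in the mutant at low, normal and excess zinc, and 9.06 ± 0.11, 9.00 ± 0.37 and 8.39 ± 0.22 in wild-type roots. Neighbours in that order of level lay within their spread, except that the mutant and wild type at low zinc, at 9.35 and 9.06, did not overlap.

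At excess zinc, then, 1 of 6 members (PSAN) was called in mutant roots, against 5.07% of all probe sets, and 2 of 6 (PSAN and CHLM) in wild-type roots, against 9.7%. At low zinc no member was called in mutant roots, against 0.0484%, or in wild-type roots, against 0.132%, and none had an unadjusted p under 0.05 (limma). RCA was 0.36 lower at excess zinc in mutant roots (adjusted p = 0.222) and 0.16 lower in wild-type roots (adjusted p = 0.651). Its means were 7.14 ± 0.17, 7.23 ± 0.18 and 6.87 ± 0.30 in the mutant at low, normal and excess zinc, and 6.97 ± 0.11, 6.94 ± 0.25 and 6.79 ± 0.33 in wild-type roots. The dim probe sets stayed within narrow limits: over the 24 root arrays PRK lay between 4.66 and 5.22, PSAE-1 between 5.37 and 5.84, and PORB between 5.05 and 5.69. In mutant roots, in the order of low, normal and excess zinc, PRK averaged 4.91 ± 0.10, 4.84 ± 0.038 and 4.81 ± 0.15, PSAE-1 5.43 ± 0.077, 5.55 ± 0.098 and 5.66 ± 0.13, and PORB 5.27 ± 0.18, 5.42 ± 0.087 and 5.36 ± 0.099. In wild-type roots, in the same order, PRK averaged 5.01 ± 0.17, 5.03 ± 0.097 and 5.00 ± 0.17, PSAE-1 5.59 ± 0.14, 5.60 ± 0.16 and 5.64 ± 0.035, and PORB 5.61 ± 0.12, 5.45 ± 0.12 and 5.47 ± 0.18. For these 3 genes, and for RCA, the groups next to each other in level did not differ beyond their spread.

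**Figure D4:**
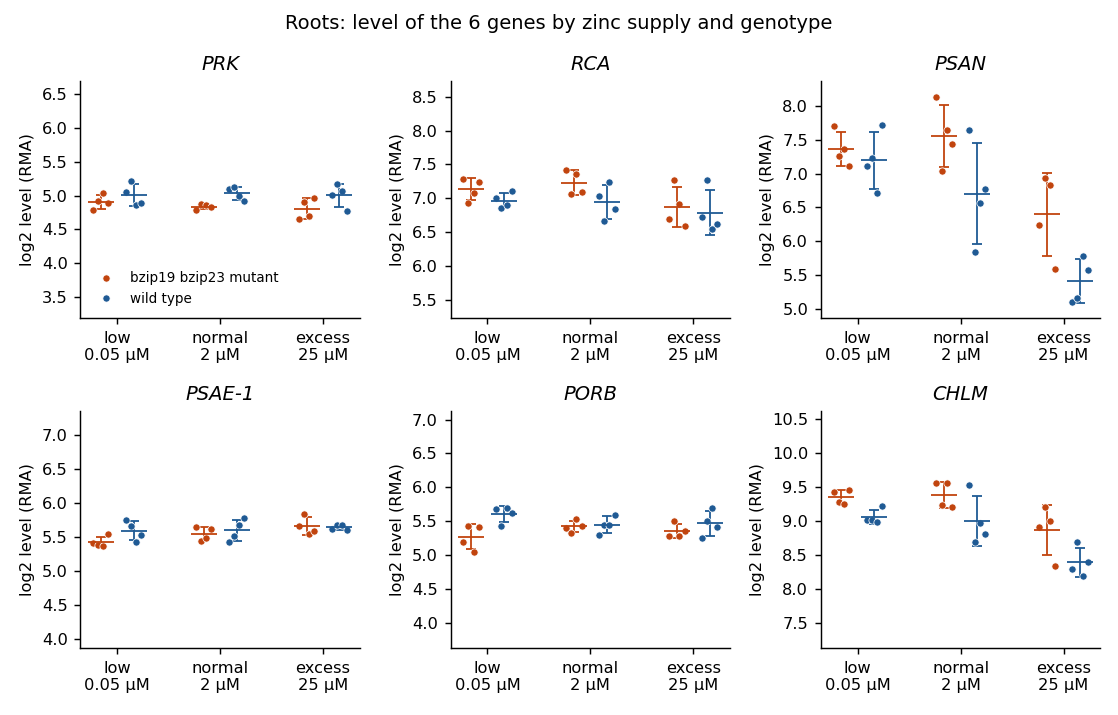
Log2 level (y axis, RMA values) of each gene on root arrays by zinc supply, low to excess (x axis), with a point per array and bars for the mean and SD, n = 4. Each panel spans the same number of log2 units. PSAN and CHLM are lowest at excess zinc in both genotypes, at 5.41 and 8.39 on average in wild type, while PRK, PSAE-1 and PORB stay between 4.66 and 5.84.

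The calls in single genotypes at excess zinc rested on few arrays. Without replicate 1 of wild type at normal zinc the difference in wild-type roots was -0.98 for PSAN (adjusted p = 0.0521, limma) and -0.43 for CHLM (adjusted p = 0.0980), and CHLM lost its call also without replicate 1 (-0.57, adjusted p = 0.0625) or 3 (-0.54, adjusted p = 0.0616) at excess zinc. In mutant roots PSAN lost its call without replicate 1, 3 or 4 at normal zinc or replicate 1 or 4 at excess zinc, with a difference of -0.89 at the least (adjusted p = 0.163). Without the wild-type array of low correlation (excess zinc, replicate 2) both calls in wild type held, at -1.22 for PSAN and -0.71 for CHLM. In the mean of both genotypes, added after these values were seen, PSAN stood at 5.90 at excess zinc against 7.13 at normal zinc (-1.23 ± 0.23, adjusted p = 5.27e-04). CHLM stood at 8.63 against 9.19 (-0.56 ± 0.12, adjusted p = 0.00176). These 2 members of 6 were called there, beside 15% of all probe sets, and they kept the call in all 24 (PSAN) and all 25 (CHLM) alternative fits, with -1.19 for PSAN and -0.61 for CHLM without that array. No member was called in the mean at low zinc, where 0.783% of all probe sets were, and none had an unadjusted p under 0.05.

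The values of these other genes and of the root markers beside this fall were as follows. The mean over the same 13 nuclear genes was 6.88 to 7.08 on the arrays of mutant roots at excess zinc, against 6.88 to 7.16 at normal zinc, and 6.83 to 7.01 in wild-type roots at excess zinc, against 6.85 to 7.06 at normal zinc. The mean over the 69 chloroplast-encoded probe sets was 6.59 to 7.11 in mutant roots at excess zinc, against 6.69 to 7.04 at normal zinc, and 6.34 to 6.83 in wild-type roots at excess zinc, against 6.42 to 6.86 at normal zinc. The 3 root markers averaged 9.50 to 10.12 in mutant roots at excess zinc, against 9.09 to 9.97 at normal zinc, and 9.16 to 9.93 in wild-type roots at excess zinc, against 9.59 to 10.12 at normal zinc. In each case the supplies overlapped. The mean over the 13 pools genes that moved apart. In wild-type roots the 3 light harvesting genes were all lower at excess zinc (median difference -0.34), and in mutant roots 2 of 3 were (median -0.22). The median of the 6 tetrapyrrole genes was -0.003 in the mutant and 0.09 in wild type. None of these genes was called in a single genotype. In the mean of both genotypes, 1 of the 3 root markers rose at excess zinc, beside 15% of all probe sets called in either direction. This was PYK10, at 13.10 against 12.72 at normal zinc (0.38 ± 0.10, adjusted p = 0.0137, limma). The part of these genes and markers in the fall of PSAN and CHLM was not tested. The actin measure of RNA integrity was 1.15 to 1.48 in mutant roots at excess zinc, against 1.19 to 1.68 at normal zinc, and with it as a covariate the mutant's PSAN difference was -0.98 (adjusted p = 0.125). In wild-type roots the measure was 1.097 to 1.25 at excess zinc, against 1.12 to 1.24 at normal zinc, and the PSAN difference with the covariate was -1.29 (adjusted p = 0.00979).

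Between the double mutant and wild type no member was called at any single supply. None was called in shoots, against 5.88% of all probe sets at low zinc, 0.022% at normal zinc and 0.0308% at excess zinc. In roots none was called either, against 0.0835% at low, 0.0572% at normal and 1.48% at excess zinc. At an unadjusted p under 0.05, limma gave 3, 0 and 1 members in shoots at low, normal and excess zinc, beside 21.7%, 7.91% and 6.5% of all probe sets, and 1, 3 and 3 in roots, beside 8.83%, 11.7% and 17%. The intervals did not exclude sizeable differences: in roots PSAN was higher in the mutant by 0.85 at normal zinc (95% interval from 0.19 to 1.51, adjusted p = 0.327) and by 0.99 at excess zinc (from 0.33 to 1.65, adjusted p = 0.119). At low zinc the photosystem I genes of mutant shoots lay below all wild-type arrays: PSAN read 13.09, 12.83 and 13.03 in the mutant against 13.26, 13.22 and 13.33 in wild type, and PSAE-1 read 13.26, 13.23 and 13.11 against 13.46, 13.40 and 13.44. The differences were -0.29 ± 0.086 for PSAN (adjusted p = 0.0609) and -0.23 ± 0.077 for PSAE-1 (adjusted p = 0.0841). In the same comparison the genotypes did not overlap for 5 of the 13 other nuclear pathway genes either. The share of all probe sets without overlap was not counted, so none of these separations can be set against it. PSAN passed in 4 of 15 alternative fits, among them the one without replicate 1 of the mutant at low zinc (-0.34, adjusted p = 0.0391). In roots at low zinc PORB read 5.19, 5.43, 5.05 and 5.41 in the mutant against 5.68, 5.43, 5.69 and 5.62 in wild type, and the groups met but did not cross (-0.33 ± 0.096, adjusted p = 0.356). Over the 3 supplies, a mean added after these values were seen, CHLM was 1.31-fold higher in mutant roots, at 9.20 against 8.82 in wild-type roots (0.39 ± 0.096, adjusted p = 0.0377), and it was the 1 member called, beside 2.37% of all probe sets. PSAN averaged 7.11 in mutant roots against 6.44 in wild-type roots (0.67 ± 0.18, adjusted p = 0.0540). The call of CHLM was lost in 15 of 24 fits that left out 1 array (adjusted p up to 0.0773, differences of 0.35 to 0.45 over all 24), and with the actin covariate (0.37, adjusted p = 0.170), and the actin measure was 1.15 to 1.68 in mutant roots and 1.097 to 1.501 in wild-type roots. In shoots no member was called in this mean, against 4.3% of all probe sets, with 4 at an unadjusted p under 0.05 (17.8% of all probe sets), among them PORB at 0.31 (adjusted p = 0.0790).

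Zinc responses of the members did not differ detectably between the genotypes. The interaction, the mutant's response minus that of wild type, was called for no member in shoots at low zinc, against 0.0132% of all probe sets, or at excess zinc, where 0% of probe sets were called (8.11% at an unadjusted p under 0.05). In roots it was called for no member at low zinc, against 0.0176%, or at excess zinc, against 0.0132%. At an unadjusted p under 0.05 limma gave 0 members in each of these 4 tests except roots at low zinc, where PORB had -0.31 (adjusted p = 1.00). Of all probe sets, 4.78% had an unadjusted p under 0.05 in shoots at low zinc. In roots the share was 3.57% at low and 6.92% at excess zinc. The root signal of PORB may be background. The intervals were wide for the genes called in roots at excess zinc: from -0.80 to 1.07 for PSAN and from -0.40 to 0.57 for CHLM.

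The response of PORB to low zinc differed between tissues in wild type. Its root level at low zinc was 5.61 against 5.45 at normal zinc, while its shoot level was 9.01 at low zinc against 9.99 at normal zinc. The tissue by zinc interaction, the root response minus the shoot response, was 1.13 ± 0.18 (adjusted p = 0.00125, limma), the only call among the 6 members beside 0.404% of all probe sets, and it held in all 20 alternative fits, among them the one without the array with the high actin measure (1.098, adjusted p = 0.00289). Root arrays at low and normal zinc lie on different dates, so date and zinc cannot be told apart in the root response, and the root signal of PORB may be background, where a fall could not be read. In the mutant the same interaction was 0.65 ± 0.18 (adjusted p = 0.294), and no member was called, against 0.0747% of all probe sets. At excess zinc no member was called in the mutant, against 4.8%, or in wild type, against 4.61%. PSAN came to -1.04 ± 0.39 in the mutant (adjusted p = 0.127) and -1.08 ± 0.39 in wild type (adjusted p = 0.126) at excess zinc, and PORB to -0.58 ± 0.18 (adjusted p = 0.0616) and -0.41 ± 0.18 (adjusted p = 0.241). At an unadjusted p under 0.05 the counts at excess zinc were 2 in the mutant, beside 19.1% of all probe sets, and 3 in wild type, beside 16.3%, and at low zinc 1 in the mutant, beside 5.53%.

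Other nuclear genes of these pathways gave few calls. Among the probe sets paired with 1 gene, 3 of 21 loci of light harvesting were measured (LHCB4.1, LHCB4.2 and LHCB4.3, the isoforms of the antenna protein CP29), 2 of 13 of photosystem II (PSBY and PSBW), 1 of 11 of electron transport and ATP synthase (ATPC1), 1 of 17 of the Calvin cycle (SBPASE), 6 of 38 of tetrapyrrole synthesis and breakdown, and 0 of 11 others of photosystem I. The related POR genes PORA and PORC, and the PSAE-1 paralog PSAE-2, were not among them, and whether the probes of PORB or PSAE-1 also bind those transcripts was not tested. None of the 13 was called in any of the 14 zinc or genotype comparisons in single groups or the 4 genotype by zinc interactions (limma), where 0 to 9.7% of all probe sets were called. At an unadjusted p under 0.05 the counts were 0 to 4 of 13, beside 3.57 to 22.1% of all probe sets. In shoots at low zinc, where PORB fell in wild type, the median difference of the 13 was -0.13 in the mutant and -0.18 in wild type, against -0.17 and -0.07 for the 6 members and -0.002 and 0.02 for all probe sets. HEME2, a uroporphyrinogen decarboxylase, stood at -0.47 in wild-type shoots (adjusted p = 0.195), and CHLI2, a subunit of magnesium chelatase, at -0.44 in mutant shoots (adjusted p = 0.414) and -0.40 in wild-type shoots (adjusted p = 0.334). In roots at excess zinc the medians of the 13 were -0.03 in the mutant and -0.08 in wild type, against -0.21 and -0.09 for the members and -0.03 and -0.001 for all probe sets.

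In the means of both genotypes, LHCB4.2 fell in roots at excess zinc, to 5.90 against 6.41 at normal zinc (-0.51 ± 0.11, adjusted p = 0.00276, limma). In the mean over supplies, LHCB4.3 was lower in mutant shoots than in wild-type shoots, at 10.96 against 11.40 (-0.44 ± 0.090, adjusted p = 0.0142). Of all probe sets, 15% were called in the first of these comparisons and 4.3% in the second. HYH, a bZIP factor of light signalling related to HY5 and the 1 regulator measured of 12 listed, fell in wild-type roots at excess zinc, to 4.80 against 5.65 at normal zinc (-0.85 ± 0.14, adjusted p = 3.51e-04). HYH fell also in the mean of both genotypes, to 4.77 against 5.41 (adjusted p = 1.06e-04), and over the supplies it was lower in mutant roots than in wild-type roots, at 4.97 against 5.31 (adjusted p = 0.0350). These root means lay above 17.0 to 31.8% of all probe sets and may be background, so the size of the HYH differences in roots is not settled. In shoots HYH was highest at low zinc in both genotypes, where PORB was lowest, at 7.05, 6.19 and 5.71 in the mutant and 7.40, 6.64 and 5.97 in wild type at low, normal and excess zinc, and none of its shoot differences was called (adjusted p = 0.339 or more within a genotype and 0.0665 for low zinc in the mean of both). Between tissues, 12 of the 13 were lower in roots and called in all 6 pairs of groups, beside 58.9 to 64.1% of all probe sets called in either direction, with log2 differences of -7.37 to -6.88 for PSBY and SBPASE and of -1.09 to -0.87 for GSA1, which makes the tetrapyrrole precursor aminolevulinate. HEMA2, a glutamyl-tRNA reductase, was higher in roots, by 0.61 to 1.07.

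Within groups, RCA and CHLM varied together over the root arrays. The deviation of each array from its group mean correlated between RCA and CHLM with Pearson's r = 0.752 (n = 24 arrays, permutation p = 6.6e-04, adjusted p = 0.0198) and Spearman's rho = 0.791 (permutation p = 1.6e-04, adjusted p = 0.0048), with labels permuted within groups and adjusted over 30 pairs in both tissues. Without the 2 arrays farthest from the median of RCA, r was 0.688, and within the 2 array dates it was 0.821 (n = 8) and 0.751 (n = 16). PSAN and CHLM had r = 0.725 (permutation p = 0.00385, adjusted p = 0.0577) and rho = 0.584 (adjusted p = 0.231), which did not pass after adjustment, and r was 0.594 without the 2 arrays farthest from the median of PSAN. RCA and PSAN had r = 0.435 (permutation p = 0.0773, adjusted p = 0.386). No pair in shoots passed. There PRK and CHLM came to r = 0.714 over 18 arrays (permutation p = 0.0224, adjusted p = 0.224).

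**Figure D5:**
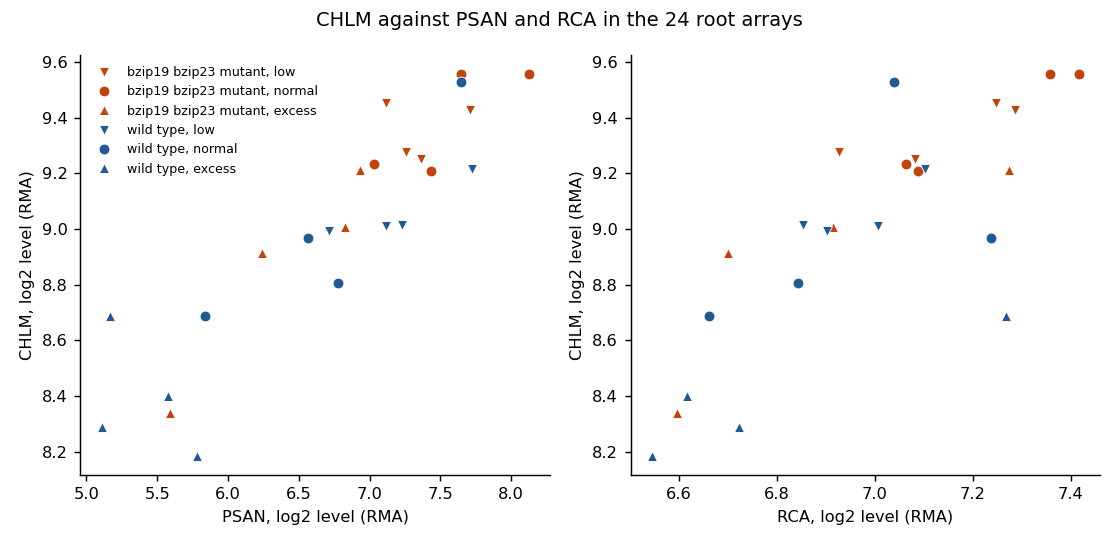
Log2 level of CHLM (y axis) against that of PSAN (left) and RCA (right) in the 24 root arrays, a point per array, with colour for genotype and shape for zinc supply. CHLM and PSAN are lowest together at excess zinc, and CHLM rises with RCA also among arrays of 1 group, with r = 0.752 for the deviations from group means.

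Over the 12 group means, after subtraction of each tissue's mean, PSAN and CHLM had the most alike pattern of the members (r = 0.965, a description over 12 groups that share arrays and normalisation). This r rests mostly on roots, where the group means spanned 2.15 for PSAN and 1.00 for CHLM, against 0.33 and 0.22 in shoots. The group means of PORB spanned 0.33 in roots and 1.71 in shoots. RCA resembled CHLM with r = 0.859 and PSAN with r = 0.828, while PORB reached at most 0.415, with PSAE-1. Of the 13513 probe sets with 1 gene, the nearest to PSAN were AT1G32160 (r = 0.98) and AT1G33813 (r = 0.979). At low, normal and excess zinc AT1G33813 averaged 6.79, 6.86 and 5.77 in the mutant's roots, against 6.34, 5.90 and 4.67 in those of wild type. The nearest to CHLM were AT5G15180 (r = 0.965) and PSAN itself, and the nearest to RCA were AT1G80020 (r = 0.955) and AT1G33817 (r = 0.953). PORB was nearest to AT5G22430 (r = 0.977) and AT4G12590 (r = 0.972), and PRK to AT4G08020 (r = 0.924) and AT3G30240 (r = 0.917). The group means of PRK spanned only 0.22 in roots and 0.25 in shoots (log2). Its 2 nearest genes averaged 4.35 to 5.15 over the groups and may be background. These neighbours were picked as the highest of many correlations, and shared regulation was not tested. PSAE-1 was nearest to AT5G19370 (r = 0.914) and to PSBY (r = 0.904), a small protein of photosystem II.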

How the data were processed

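The deposited table holds 1 log2 value per probe set and array, made by the authors with RMA (background correction, quantile normalisation and summary), per the submitters' processing notes, which also name limma. Versions of these tools and a genome build were not stated there. Array medians lay between 6.87 and 6.99. The raw intensities were not used here. The 64 control probe sets were left out, with no further filter on dim probe sets. Genes came from a platform table and a RefSeq table, with no coordinates or sequences printed.

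Tests used R 4.3.3 and limma 3.58.1, two-sided, with roots (24 arrays) and shoots (18 arrays) fitted apart and tissues in 1 fit of 42 arrays, in 34 comparisons. Permutation tests drew 100000 permutations (Python 3.11.15, numpy 2.4.6, scipy 1.17.1). The procedure was tested on simulated data. The number of arrays limits the precision. Named genes are the 6 members, up to 4 called members of each pathway list, the 2 genes most like each member, and HEME2, CHLI2, GSA1, HEMA2 and single values of unadjusted p, which were chosen after their values were seen. The members and lists were chosen with earlier results of these data known. Arrays with the same replicate number correlated above 0.1 in their deviations in 16 of 60 root pairs and 9 of 45 shoot pairs. Their mean correlation was -0.024 in roots and -0.0030 in shoots, against 0.0086 and 0.0011 for different numbers. The main fits did not pair samples by number, and whether the numbers pair them is not settled by these correlations. The alternatives were a replicate block, a filter on dim probe sets, a second quantile normalisation, array weights, eBayes with trend and robust, the actin covariate, other sets of arrays, and leaving out each array.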

Additional observations from a re-analysis of the deposited data

Results flagged for a closer look

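The CHLM value of wild-type roots at low zinc, replicate 4, was 9.22 on the log2 scale and stood apart from the other arrays of its group (9.01, 9.02 and 8.99). It lay 0.9 of the group's range away from the nearest of them. It was the only one of 36 gene and group combinations in roots to stand apart in this way, and chance flags about 1 in 20 such groups. Shoot groups of 3 arrays were not examined.

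The response of PORB to low zinc differed between roots and shoots of wild type by 1.13 on the log2 scale (root minus shoot response, adjusted p = 0.00125, limma). Root arrays at low and normal zinc lie on different dates, and the part of the date in this difference was not tested. The root signal of PORB may be background, where a fall could not be read, so the difference rests on the fall in shoots.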

How the results depend on the processing

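The deposited values carry no detection calls, so low root signals cannot be separated from background, and 3 or 4 arrays per group limit the precision. Of the 46 differences of members that were called, refitted 674 times, none changed sign; 42 refits lost the call, none of them among the 468 of roots against shoots. The 158 uncalled differences were refitted 2938 times, and 46 of these refits passed the threshold.

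Counts of called members by setting follow, with the reported count in parentheses. With only probe sets above the median level, 1 was called in mutant shoots at low zinc (0), 1 between genotypes in shoots at low zinc (0), 1 in wild-type roots at excess zinc (2), 0 in mutant roots at excess zinc (1) and 1 in the mean of both genotypes in roots at excess zinc (2), PSAN being left out by this filter. With a second quantile normalisation, 1 was called between genotypes in shoots at low zinc (0) and 0 between genotypes in roots over the supplies (1). With array weights, counts were 2 in mutant shoots at low zinc (0), 1 in mutant shoots at excess zinc (0), 2 between genotypes in shoots at low zinc (0), 2 in the mean of shoots at low zinc (1), 2 in the mean of shoots at excess zinc (1), 2 between genotypes in shoots over the supplies (0), 1 in wild-type roots at excess zinc (2), 2 in mutant roots at excess zinc (1), 2 between genotypes in roots at normal zinc (0), 4 between genotypes in roots over the supplies (1), and 1 in the mutant's tissue by zinc interaction at low zinc (0) and at excess zinc (0). With the actin covariate, they were 1 in mutant shoots at low zinc (0), 0 in mutant roots at excess zinc (1) and 0 between genotypes in roots over the supplies (1). With all 42 arrays in 1 fit, they were 1 in mutant shoots at low zinc (0), 1 in mutant shoots at excess zinc (0), 1 between genotypes in shoots over the supplies (0), 2 in mutant roots at excess zinc (1), 1 between genotypes in roots at excess zinc (0) and 2 between genotypes in roots over the supplies (1). In roots at excess zinc, eBayes with trend and robust gave 0 in the mutant (1), the arrays of the compared groups alone 0 in the mutant (1) and 0 in wild type (2), and the arrays of the same date alone 0 in the mutant (1) and 1 in wild type (2). Except where fewer arrays or probe sets entered the fit, the cause was not tested.

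The replicate block changed no count of called members; with it PORB in wild-type shoots at low zinc had an adjusted p of 0.0163 and PSAN in wild-type roots at excess zinc 0.0150 (limma). When each array was left out in turn, the count ran from 0 to 1 between genotypes in shoots at low zinc, in wild-type and in mutant shoots at low zinc, in the mean of shoots at excess zinc, between genotypes in shoots over the supplies, and in the tissue by zinc interactions of the mutant at both supplies and of wild type at excess zinc. It ran from 0 to 2 in roots of each genotype at excess zinc and between genotypes in roots at excess zinc, from 0 to 3 between genotypes in roots over the supplies, and from 2 to 3 in the mean of roots at excess zinc. Counts over all probe sets ran from 31 to 435 (160 reported) in wild-type shoots at low zinc, from 0 to 1250 (15) in mutant shoots at low zinc, from 124 to 2309 (729) in mutant shoots and 35 to 513 (141) in wild-type shoots at excess zinc, from 600 to 2067 (1153) in mutant roots and 674 to 2915 (2206) in wild-type roots at excess zinc, from 44 to 3320 (1337) between genotypes in shoots at low zinc, and from 5 to 1305 (336) between genotypes in roots at excess zinc. Between genotypes they also ran from 1 to 37 (5) in shoots at normal and 3 to 24 (7) at excess zinc, and from 14 to 57 (19) in roots at low and 10 to 577 (13) at normal zinc. Within a genotype at low zinc they ran from 5 to 120 (11) in mutant roots and 15 to 999 (30) in wild-type roots. In the means over genotypes they ran from 232 to 1624 (380) in shoots at low and 552 to 2753 (1171) at excess zinc and from 67 to 1649 (178) in roots at low zinc, and between genotypes over the supplies from 447 to 1919 (979) in shoots and 35 to 2856 (538) in roots. In the tissue by zinc interactions they ran from 2 to 489 (17) in the mutant and 21 to 611 (92) in wild type at low zinc, and from 591 to 2428 (1092) and 590 to 1841 (1048) at excess zinc. In the genotype by zinc interactions they ran from 1 to 4 (3) and 0 to 8 (0) in shoots at low and excess zinc and from 2 to 31 (3) in roots at excess zinc, and between tissues from 8443, with only the brighter probe sets tested, to 15999 (13399 to 14574).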
